A study of Mus musculus with 2 samples.

Results

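Serum response factor (Srf) peaks that share sequence with acetylated histone H3 (H3ac) are described here, in HL-1 cells, a mouse atrial cardiomyocyte line that keeps contracting in culture. A Srf peak was a member when it began at position 3100000 or later on its chromosome, which leaves out pileups at chromosome starts, and had at least 1 bp in common with an H3ac peak. This held for 546 of the 2032 Srf peaks from that position on, or 26.9% (exact Clopper-Pearson 95% interval 24.95% to 28.9%), out of 2190 Srf and 10486 H3ac peaks in all. Both libraries came from HL-1 cells grown to their highest density, for which the labels name no treatment or genetic change, with 1 chromatin immunoprecipitation library against Srf and 1 against H3ac. Members were thus chosen by the measured overlap of the lists, which is given as a description. The lists give positions in mm9 only, with no score, height or read count, so depth is unknown. With 1 library per antibody there was no replicate to test against, and no p-value was computed. Intervals reflect the number of peaks counted and are too narrow where neighbouring peaks depend on each other.

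Srf binds DNA as a dimer at the CArG box, an AT-rich core between a pair of C's and a pair of G's. With ternary complex factors it drives growth-response genes, and with myocardin and the related MRTF cofactors it drives genes of the actin cytoskeleton and of contractile muscle. Acetyl groups on histone H3 are placed by acetyltransferases that transcription factors recruit, and mark open promoters and enhancers. A called H3ac peak is usually read as a stretch of acetylated nucleosomes and a Srf peak as a site the factor occupies, and these lists show how the called intervals sit on each other. The labels do not say which lysines of H3 the antibody recognises. An mm9 sequence and gene annotation were not used here, so CArG boxes, start sites and gene names are not given for any member.

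Members overlapped H3ac in 3 ways. In 193 (35.3%, interval 31.3% to 39.5%) the whole Srf peak lay inside the H3ac peak. In 73 (13.4%, interval 10.6% to 16.5%) the H3ac peak lay inside the Srf peak. The other 280 (51.3%, interval 47.0% to 55.5%) overlapped at 1 edge, with the H3ac peak on the lower-coordinate side in 138 and on the higher-coordinate side in 142. Neither side of the genome axis was favoured, and strand is unknown. Nearly every member met a single H3ac peak: 544 had 1 partner and 2 had 2 partners.

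The 3 arrangements had different sizes. Members inside an H3ac peak were narrow themselves (median 157 bp, quartiles 116 and 198 bp) and lay on long partners, with a median of 1233 bp. Members that enclosed their partner were wide (median 314 bp, up to 3812 bp) and the enclosed H3ac peak was short, with a median of 87 bp. In the members that overlapped at 1 edge both peaks were of like size, 194 bp for Srf and 193 bp for H3ac at the median. These shared a median of 59.5 bp, left 132.5 bp of the Srf peak outside acetylated sequence and left 137 bp of the H3ac peak outside the Srf peak. The arrangement follows in part from widths alone, since a short peak can lie inside a long one and not the reverse.

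**Figure D1:**
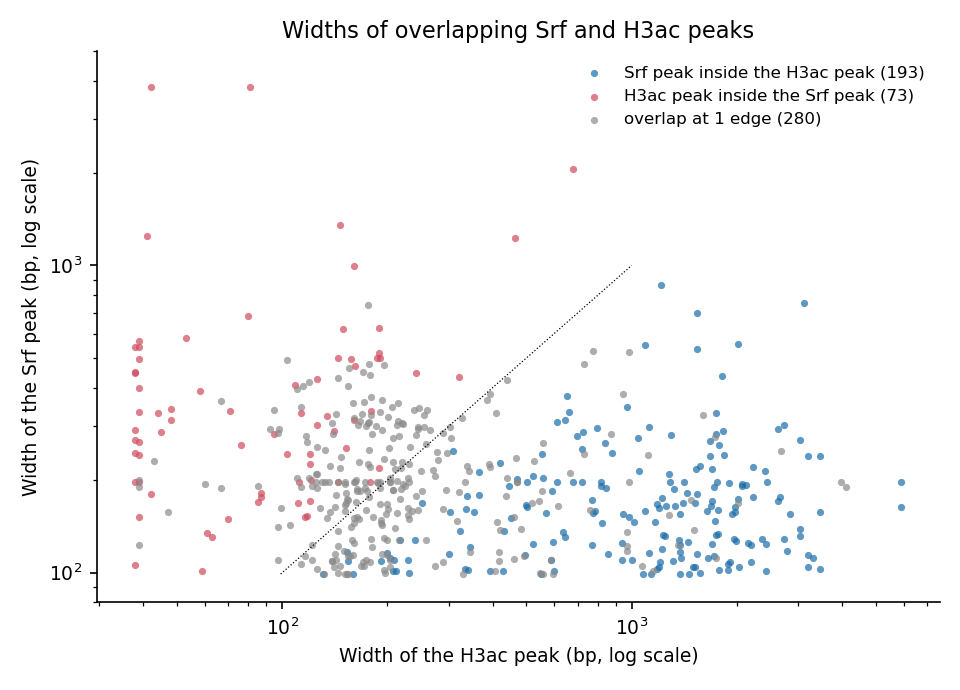
Width of each member (vertical axis, bp, log scale) against the width of the H3ac peak with which it shares most sequence (horizontal axis, bp, log scale), 1 point per member, coloured by arrangement. The dotted line marks equal widths. The 193 members inside an H3ac peak lie to the right, the 73 that enclose one lie to the upper left, and a cloud of edge overlaps sits where both peaks are near 200 bp.

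Over all 546 members the shared stretch had a median of 102 bp (interval of the median 99 to 108 bp, range 1 to 861 bp). H3ac covered a median of 54.3% of the member (interval 49.3% to 62.7%). The distribution had weight at both ends: 193 members were covered over their whole length and 59 over less than 10%. At least 50% of the Srf peak was covered in 294 members. The midpoints of the Srf peak and its partner lay a median of 133.25 bp apart (interval 115.5 to 145 bp). The signed distance had a median of 6 bp (interval -13.5 to 20 bp), so H3ac midpoints lay about equally often on either side. Where the partner was under 350 bp, 84 of 319 members had midpoints less than 50 bp apart, and the counts were 76, 63 and 58 in the next 3 steps of 50 bp. Midpoints of short H3ac peaks were thus spread over a range of distances from the Srf midpoint and not gathered close to it. How many of them lay within the Srf peak was not counted. The required overlap sets an upper bound on these distances.

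The limit of 1 bp divides a continuous series. Among Srf peaks whose nearest H3ac peak was under 1000 bp, 137 shared 1 to 50 bp with it and 136 had a gap under 50 bp. The counts fell away on both sides, to 108 sharing 51 to 100 bp and 130 with a gap of 50 to under 100 bp. Just inside the limit were Srf peaks on chromosome 2 from 179777182 to 179777348 and on chromosome 8 from 125091761 to 125092054, each sharing 1 bp. They were followed by 2 on chromosome 14, from 25306228 to 25306380 and from 55585500 to 55585698, which shared 2 bp each, and by 1 on chromosome 8 from 13757536 to 13757786, which shared 3 bp. The partners were 98 to 177 bp wide except for the second one on chromosome 14, where the end of a 3960-bp domain touched the Srf peak. Just outside lay a Srf peak on chromosome 4 from 124391950 to 124392199, whose end is the start of an H3ac peak. The next were on chromosome 12 from 36882975 to 36883142 and on chromosome 15 from 102126696 to 102126810 with gaps of 1 bp, on chromosome 1 from 99666557 to 99666814 with 2 bp, and on chromosome 2 from 151319872 to 151320128 with 3 bp. Members with small overlaps thus have close counterparts that are not members.

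Near broad domains few Srf peaks lay close to the limit, with 4 sharing 1 to 50 bp and 1 with a gap under 50 bp. These are too few to tell whether the series is continuous there. Members whole inside a broad domain, 116 of 130, share their own full width, so they cannot fall near the limit on this scale. Of the 140 Srf peaks whose nearest H3ac peak was 1000 bp or wider and lay within 500 bp, 130 overlapped it (92.9%, interval 87.3% to 96.5%) and 10 lay beside it. For nearest H3ac peaks under 1000 bp the split was 416 against 604, or 40.8% (37.7% to 43.9%), and over all widths 47.1% of the 1160 Srf peaks within 500 bp overlapped. By width of the nearest H3ac peak, the overlapping share was 39.4% under 100 bp, 31.5% from 100 to under 200 bp, 49.8% from 200 to under 500 bp and 73.6% from 500 to under 1000 bp. The flank counted on each side was 500 bp for all widths, so a longer H3ac peak offers a larger part of the counted sequence for overlap, and the share goes up with length by construction. How much of the difference length alone would give was not tested.

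**Figure D2:**
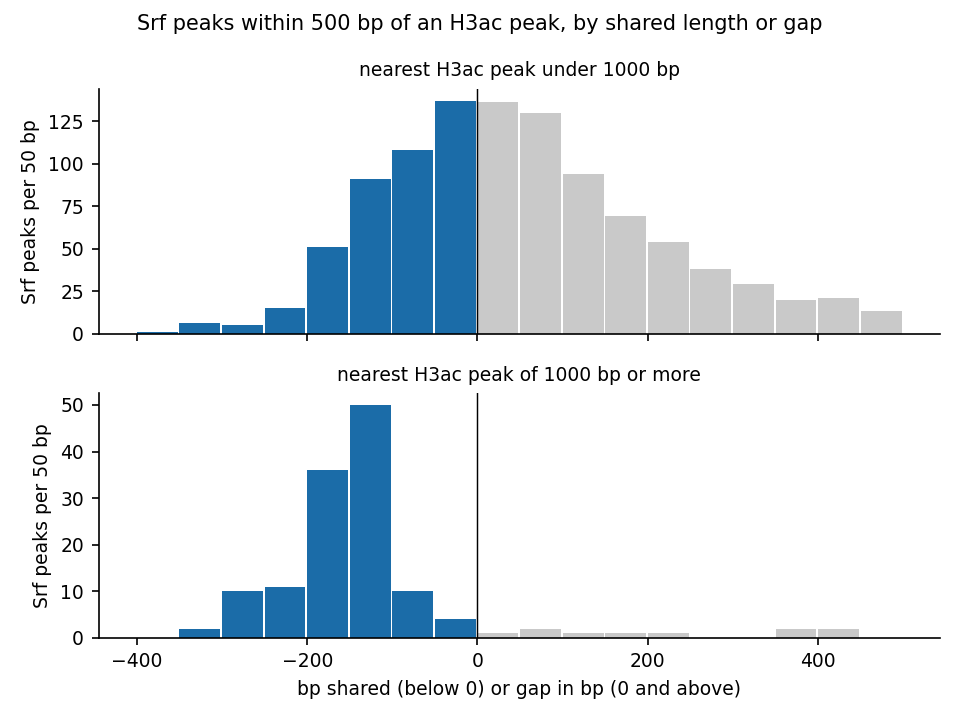
Number of Srf peaks per 50 bp (vertical axis) by the bp shared with the nearest H3ac peak (below 0, members) or by the gap to it (0 and above, not members), for nearest H3ac peaks under 1000 bp (top) and of 1000 bp or more (bottom). The top panel runs without a break across 0, with 137 and 136 Srf peaks in the bars on either side. In the bottom panel most peaks share 100 to 200 bp, which is about their own width, and 10 lie outside; the horizontal axis leaves out 7 members on broad domains and 2 on narrower ones that share more than 400 bp.

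Where members fell on broad domains, they lay toward the middle. The 130 members on H3ac peaks of 1000 bp or wider were spread over 116 domains, of which 104 held 1 member and 12 held 2 or 3. Whole inside the domain lay 116 of the 130, with a median of 496.5 bp (interval 417 to 578 bp) to the nearer domain edge. Divided into 5 equal stretches from lower to higher coordinate, the domains held 16, 29, 41, 27 and 17 Srf midpoints. The central stretch thus held 31.5% (interval 23.7% to 40.3%), where an even spread would put 20%. The end stretches include 9 members with a midpoint just outside the domain. Among the 104 domains with a single member, 32 midpoints (30.8%, interval 22.1% to 40.6%) were central. The share was 32.2% (29 of 90, interval 22.8% to 42.9%) for domains under 2000 bp and 30% (12 of 40, interval 16.6% to 46.5%) for longer ones, and the second interval includes an even spread. A Srf peak entirely inside cannot have its midpoint at the very edge, which lowers the end stretches by construction by a part of their length.

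**Figure D3:**
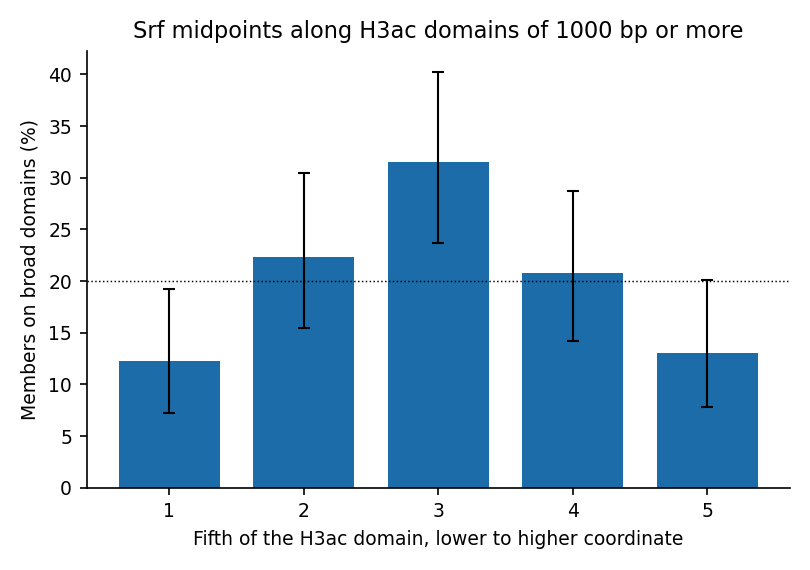
Share of the 130 members on broad H3ac domains (vertical axis, %) by the part of the domain that holds the Srf midpoint (horizontal axis, 5 equal parts in genome order). Error bars are exact 95% intervals and the dotted line is an even spread of 20%. The central part holds 41 members and the end parts 16 and 17.

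The H3ac peaks that carried members were longer than the list as a whole. The 518 distinct partners had a median width of 229 bp (interval 208 to 258 bp), against 185 bp for all 10453 H3ac peaks from the same start on. Broad domains made up 22.4% of partners and 10.9% of the list. In that list 4.96% of H3ac peaks carried a member. The share was 2.90% (interval 1.89% to 4.26%) for H3ac peaks of 50 to under 100 bp and 3.68% for those of 100 to under 200 bp. It rose to 9.12% (7.35% to 11.2%) from 1000 to under 2000 bp and 15.0% (10.5% to 20.7%) at 2000 bp or more. The shortest class broke this order: of the 380 H3ac peaks under 50 bp, 29 carried a member, or 7.63% (5.17% to 10.8%). Long peaks overlap others more often by their length, while the shortest class lay above those of 50 to under 350 bp. Its interval overlapped that of the class of 200 to under 350 bp (4.56%, 3.70% to 5.56%). The shares were 4.84% (3.24% to 6.91%) from 350 to under 500 bp and 6.55% (5.04% to 8.35%) from 500 to under 1000 bp.

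Those 29 members differed from the rest in build. Their partners were 38 to 48 bp wide, and in 24 the H3ac peak lay whole inside the Srf peak. The Srf peaks were wide, with a median of 286 bp (interval 200 to 399 bp) beside 188 bp for all members. Only 13.1% of the Srf peak was covered at the median. Each peak carries a number in its identifier, counted from 1 on each chromosome. What orders these numbers is not stated, although low numbers go with wide peaks in the Srf list. When the numbers of a chromosome were cut into 5 equal groups, 18 of the 29 fell in the lowest group of Srf numbers, 16 had a partner in the lowest group of H3ac numbers and 14 had both. Over all 546 members these counts were 126, 248 (45.4%) and 65. The H3ac count of the 29 thus lay closer to its share over all members than the Srf count did. Whether these sites are Srf binding at acetylated nucleosomes or read pileups common to both libraries was not tested, since an input library and the mm9 sequence were not used here.

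Some of the lowest numbers of both lists met at the same places. Of the 21 Srf peaks numbered 1, 20 lay past the start limit and 14 of these were members, where 26.9% of all Srf peaks were. Of the 14, 7 overlapped the H3ac peak numbered 1. In 13 members both numbers were at most 3, and in 8 of them the partner was under 50 bp. One was on chromosome 17 from 39979928 to 39983732, a Srf peak of 3804 bp around an H3ac peak of 42 bp, and both carry number 1. A neighbour from 39984647 to 39985880 (1233 bp) enclosed an H3ac peak of 465 bp, and both carry number 2. On chromosome 2, number 1 of each list met at 98506317 to 98507561 (1244 bp, around 41 bp of H3ac) and number 2 of each at 98502385 to 98503246, where the Srf peak of 861 bp lay inside 1210 bp of H3ac. Pairs of number 1 whose H3ac peak was near the median width of that list were found on chromosome 5 from 143668147 to 143668626 (479 bp, sharing 130 bp with an H3ac peak of 177 bp) and on chromosome 15 from 74917012 to 74917513 (501 bp, enclosing 191 bp). These places were picked after their values were seen.

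Over the whole list, with these extremes included, H3ac peaks in the lowest group of numbers carried members most often. From the lowest to the highest group of H3ac numbers the share with a member was 11.4%, 4.88%, 3.20%, 2.77% and 2.62%. The intervals of the middle group (2.49% to 4.04%) and of the highest (1.98% to 3.40%) overlapped. Over all groups but the lowest it was 3.37% (interval 2.99% to 3.77%). Width did not follow the same course, as the median H3ac width was 162 bp in the lowest group and 232 bp in the highest. Within each width class the lowest group was higher. For H3ac peaks of 100 to under 350 bp the shares were 9.66% (8.23% to 11.2%) against 2.19% (1.80% to 2.63%) in the other groups, and for broad domains they were 21.8% (15.4% to 29.3%) against 8.48% (6.82% to 10.4%). In the Srf list the slope was slighter, from 34.1% members in the lowest group (interval 29.3% to 39.2%) to 23.7% in the highest (19.8% to 28.0%), over which the median Srf width fell from 283 to 108 bp. Without megabases that hold 8 or more Srf peaks, the H3ac shares were 7.96% in the lowest group and 2.83% in the others. Seen from the Srf list, 45.4% of members (41.2% to 49.7%) had their partner in the lowest group of H3ac numbers. Of the 614 Srf peaks that lay up to 500 bp beside an H3ac peak, 37.5% (33.6% to 41.4%) had their nearest one in it, so low-numbered H3ac peaks were frequent beside Srf peaks as well as under them.

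**Figure D4:**
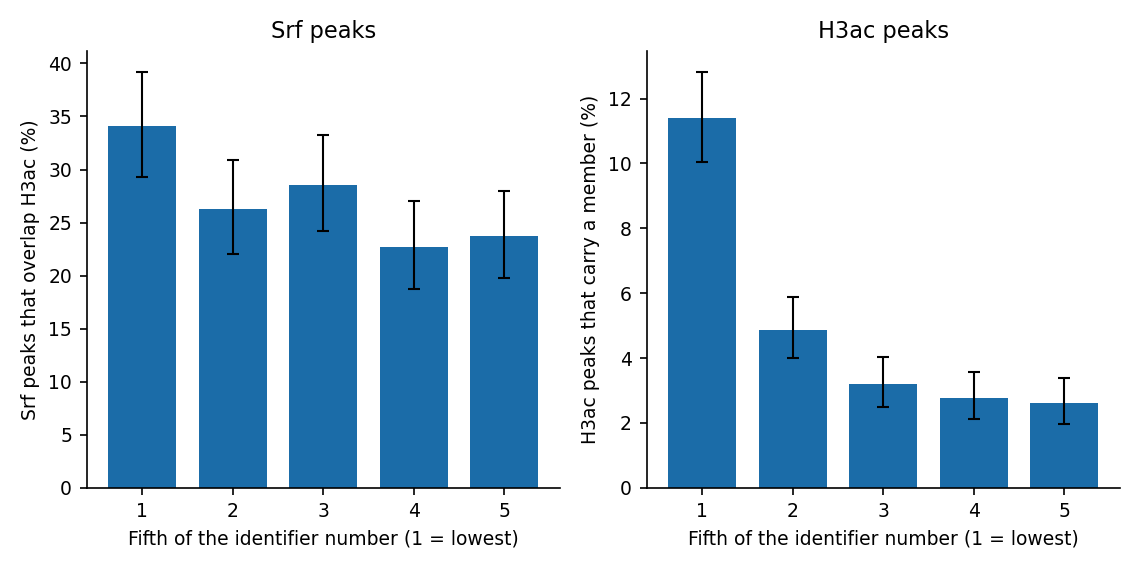
Share of Srf peaks that are members (left, %) and share of H3ac peaks that carry a member (right, %), by the identifier number of the peak within its chromosome, cut into 5 equal groups with the lowest numbers first. Error bars are exact 95% intervals. The right panel falls from 11.4% to 2.62% and the left from 34.1% to 23.7%.

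The 10 members with the most shared sequence were mostly long Srf peaks inside long domains. This follows in part from the ranking, since the shared stretch cannot be longer than either peak. The greatest overlap was the 861 bp on chromosome 2 named above. On chromosome 8 a Srf peak from 127711809 to 127712564 lay over its whole 755 bp inside 3120 bp of H3ac, and another from 124805232 to 124805786 lay over 554 bp inside 2012 bp. On the X chromosome a pair of Srf peaks only 2 bp apart, from 166434768 to 166435301 (533 bp) and from 166435303 to 166436003 (700 bp), lay inside the same H3ac peak of 1538 bp. On chromosome 17 a Srf peak from 13744695 to 13745245 (550 bp) lay inside 1089 bp of H3ac. Smaller ones lay on chromosome 12 from 33064164 to 33064601 (437 bp inside 1809 bp) and on chromosome 19 from 5488998 to 5489374 (376 bp inside 653 bp). In 2 of the 10 the Srf peak was the longer partner: on chromosome 4 from 79649110 to 79651165 it spanned 2055 bp around 679 bp of H3ac, and the second was the 1233-bp peak on chromosome 17. The Srf midpoint lay at most 623 bp from that of its domain in all 10.

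Wide Srf peaks were a small minority of members, but most wide Srf peaks from the start limit on were members. Of the 546, 27 were 500 bp or wider (4.95%, interval 3.28% to 7.11%), against 7 of the other 1486 (0.471%, 0.190% to 0.968%) and 1.67% of all 2032. Width is not independent of the rule, because a wide peak meets others more often. The median was 188 bp for members (interval 177 to 198 bp) and 169.5 bp for the others (164 to 174 bp). A width of exactly 198 bp recurred in 31 members and in 62 of the other Srf peaks, 4.58% of all, and the next most frequent member width was 99 bp, with 14.

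Several members could share an H3ac peak. Of the 518 partners, 493 carried 1 member, 22 carried 2 and 3 carried 3. On chromosome 8 an H3ac peak from 127176247 to 127179706 (3459 bp) held Srf peaks of 157, 239 and 103 bp, all inside it and the last 2 only 35 bp apart. On chromosome 12 an H3ac peak from 8504841 to 8507876 (3035 bp) held 3 of 132, 271 and 139 bp along its central part. The third was much shorter, on chromosome 10 from 21862235 to 21862704 (469 bp). There a Srf peak of 202 bp lay inside, and Srf peaks of 198 and 197 bp covered 50 and 43 bp of its ends. The 3 were alike in width and lay 50 and 124 bp apart. Of the 22 with 2 members, an H3ac peak on chromosome 1 from 95374708 to 95375893 (1185 bp) held Srf peaks of 167 and 103 bp that lay 21 bp apart, and one on chromosome 2 from 181665535 to 181665974 (439 bp) was overlapped at either end by Srf peaks of 423 and 204 bp.

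The reverse, a Srf peak on 2 H3ac peaks, occurred in 2 members. On chromosome 1 the longest Srf peak of the list, from 24618287 to 24622099 (3812 bp), held 157 bp of H3ac in all, or 4.12% of its length. On chromosome 9 a Srf peak from 44142548 to 44143076 (528 bp) shared 220 bp with its partners, the larger of which was 777 bp. Neighbouring H3ac peaks were seldom close: 0.841% of neighbouring pairs in the whole H3ac list had a gap under 500 bp, against 9.73% of neighbouring Srf pairs. How the peak caller joined adjacent signal is not given in the sources used here, and it can set both values.

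Within 1000 bp, members had Srf neighbours more often than the other classes of Srf peaks did. Another Srf peak lay within 1000 bp of 128 members (23.4%, interval 19.95% to 27.2%), where 13.6% of all Srf peaks had one. The share was 13.2% (10.6% to 16.1%) for the 614 Srf peaks within 500 bp of H3ac, 12.3% (8.71% to 16.7%) for the 285 with a gap of 0.5 to 10 kb and 5.62% (3.90% to 7.80%) for the 587 farther away. Within 100 bp the same order held, at 10.6%, 5.86%, 3.16% and 2.04%. Outside the megabases with 8 or more Srf peaks the shares within 1000 bp were 15.4% (11.9% to 19.4%) for members and 8.15% (5.88% to 10.9%), 8.50% and 5.36% for the other classes. From 1 to 10 kb the order was another one: 18.3% of members (15.2% to 21.8%) had a Srf neighbour there, against 28.4% (23.3% to 34.0%) of the Srf peaks with a gap of 0.5 to 10 kb, 9.45% of those within 500 bp and 13.2% of all. Outside the dense megabases these were 6.90%, 18% and 5.91% in the same order of classes. In 72 members the neighbour within 1000 bp was also a member, and in 62 a Srf peak without H3ac overlap lay within that distance. Within 10 kb, 99 members (18.1%, interval 15.0% to 21.6%) had another member, and 9.55% did outside the dense megabases. Of the 1486 other Srf peaks, 13.3% (11.6% to 15.1%) had another of their own kind within 10 kb. The sets differ in size, so these shares are not like for like.

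At longer range members had numbers of neighbours close to those of other Srf peaks near H3ac. At 10 to 100 kb, beyond the distances that define the classes of near Srf peaks, members had a mean of 4.12 H3ac peaks (median 3, highest 23). The means were 3.62 for Srf peaks within 500 bp of H3ac, 4.74 for those with a gap of 0.5 to 10 kb and 2.34 for those farther away. At least 1 H3ac peak in that range was present for 84.4% of members (interval 81.1% to 87.4%), against 82.4% of all Srf peaks. For Srf neighbours in the same range the means were 1.90, 1.30, 1.86 and 0.767 in the same order, and 51.1% of members had one, against 58.2% of the Srf peaks with a gap of 0.5 to 10 kb and 46.9% of all. These means depended on the megabases rich in Srf: without them members had 2.56 H3ac and 0.515 Srf peaks in that range, and the Srf peaks within 500 bp had 2.71 and 0.507. Outside those megabases the means of members and of Srf peaks beside H3ac thus lay close together.

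**Figure D5:**
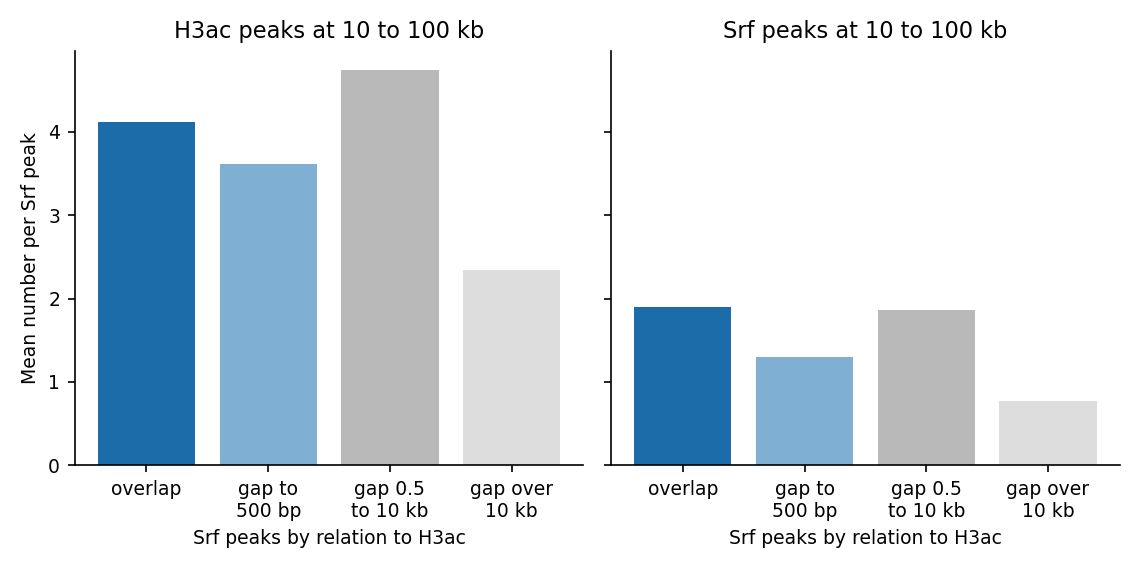
Mean number of H3ac peaks (left) and of other Srf peaks (right) at 10 to 100 kb from a Srf peak (vertical axis), for members and for the 3 classes of Srf peaks without overlap (horizontal axis). Members have 4.12 and 1.90, and Srf peaks more than 10000 bp from H3ac have 2.34 and 0.767; no error bar is drawn because Srf peaks near each other share neighbours.

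A minority of members stood alone, and this was less frequent than in the Srf list as a whole. No second H3ac peak lay within 100000 bp of 65 members (11.9%, interval 9.31% to 14.9%), where 22.6% of all Srf peaks had at most 1 H3ac peak on them or within that distance. The all-peak share includes the Srf peaks far from H3ac by their class, and for the Srf peaks within 500 bp of H3ac it was 12.7% (10.2% to 15.6%). No other Srf peak lay within 100000 bp of 206 members (37.7%, 33.6% to 41.9%), against 45.3% of all and 47.1% (43.1% to 51.1%) of those within 500 bp. Neither was present for 44 members (8.06%, 5.92% to 10.7%), against 16.5% of all. For the Srf peaks within 500 bp of H3ac this share was 10.3% (7.97% to 12.9%), with an interval that overlaps that of members. These shares were not computed outside the megabases with 8 or more Srf peaks. There 33.2% of members (28.4% to 38.2%) had a Srf neighbour at 10 to 100 kb. The same held for 35.0% of those within 500 bp, 42.5% of those with a gap of 0.5 to 10 kb and 31.8% of those farther away. Members on broad domains had another H3ac peak within 10000 bp in 55 of 130 cases (42.3%, 33.7% to 51.3%), and those on partners under 50 bp in 9 of 29 (31.0%, 15.3% to 50.8%), with intervals that overlap.

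Members were spread over 441 windows of 100 kb, of which 374 held 1 member, 62 held 2 to 4 and 5 held more. The fullest was on the X chromosome from 166.4 to 166.5 Mb, where 11 of 20 Srf peaks were members, between 166416241 and 166437344. The Srf peaks there were wide, from 170 to 700 bp with a median of 390 bp, while their 10 partners had a median of 126 bp over the members, and 7 of the 11 enclosed their partner. Another 4 windows held 5 members each. On chromosome 8 from 107.8 to 107.9 Mb, 3 of the 5 lay inside H3ac domains of 2195 and 1719 bp, and 1 enclosed an H3ac peak of 38 bp. On chromosome 8 from 108.4 to 108.5 Mb none lay inside, and the partners were 109 to 179 bp. The window from 129 to 129.1 Mb on chromosome 8 had 5 members of 104 to 279 bp, of which 2 lay inside H3ac peaks of 769 and 1519 bp. On chromosome 9 from 44.1 to 44.2 Mb the 5 members were 156 to 528 bp wide on 4 partners. Thus clusters of members did not share 1 arrangement.

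The share of members was highest in megabases with 8 or more Srf peaks. In megabases with a single Srf peak, 21.4% of Srf peaks were members (interval 17.6% to 25.7%), and the share was 23.4%, 24.2% and 26.4% in those with 2, with 3 or 4 and with 5 to 7. The intervals of these 4 classes overlapped one another. In the 30 megabases with 8 or more Srf peaks the share was 38.2% (33.7% to 42.9%). How many of these 30 lay on chromosome 8 was not counted. The arrangement did not follow this order: members inside their H3ac peak made up 36.7% in the first class (26.8% to 47.5%) and 37.3% in the last (30.0% to 45.0%), and the median partner was 218 and 229 bp wide. The form of the overlap thus did not differ beyond these intervals between the sparsest and the most crowded megabases. Its frequency was higher in the most crowded ones. Neighbouring Srf peaks depend on each other there, so the intervals are too narrow and do not test this difference.

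By chromosome, members were most numerous on chromosome 8, with 108 of 546 (19.8%), beside 15.2% of the 2032 Srf peaks and 7.65% of H3ac peaks. Chromosome 11 followed with 42 members, and chromosomes 9 and 12 with 37 each. Chromosome 3 had 6 members among 72 Srf peaks (8.33%, interval 3.12% to 17.3%), the lowest share, and held 1.10% of members beside 3.54% of the 2032 Srf peaks and 4.49% of H3ac peaks. Chromosome 8 had the highest share, 34.95% (29.6% to 40.6%), followed by chromosomes 14, X, 12 and 17 with 34.3%, 33.3%, 32.2% and 31.4%. The intervals of all other chromosomes counted overlapped that of chromosome 8, except those of chromosome 3 and of chromosome 1 (20.6%, 14.0% to 28.6%). A share per chromosome can rest on a local block and need not hold along its length. On the X chromosome 11 of the 13 members lay in the window from 166.4 to 166.5 Mb. How far the shares of chromosomes 8 and 14 rest on such blocks was not counted. The share of members whole inside their H3ac peak was 36.1% on chromosome 8 (27.1% to 45.9%) and ranged from 11.1% of 9 members on chromosome 13 to 52.2% of 23 on chromosome 14, with intervals of 0.281% to 48.2% and 30.6% to 73.2% that overlap.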

How the data were processed

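In all, 1 Srf and 1 H3ac library of HL-1 cells were sequenced on an Illumina instrument. Each deposited list holds no other measure than the start and end position of a peak in bp, per the file headers. The submitters' processing notes name build mm9. Not given in the sources used here are the aligner, the peak caller, any control, any filters and whether positions count from 0 or 1. Depth is unknown, so precision rests on peak numbers.

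The members and the lists of regions were chosen with earlier results of these data known. Widths are end minus start, and the partner is the H3ac peak sharing most bp. Gaps run from edge to edge. For shares, exact Clopper-Pearson intervals were used, and for medians intervals from binomial ranks (95%). Neighbours and denominators use peaks that start at 3100000 or later. Named were the 10 members with most shared bp, the 5 with fewest, the 5 closest Srf peaks that are not members, the 5 H3ac peaks with most members and the 3 windows of 100 kb with most members, with ties by position; windows tied with these are also given, and peaks with low identifier numbers, those on 2 H3ac peaks and chromosomes were chosen after their values were seen. Simulated lists with planted arrangements were used to test the overlap step. Scripts used scipy 1.17.1, pandas 2.3.3 and numpy 2.4.6 under Python 3.11.15, and figures matplotlib 3.10.9.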

Additional observations from a re-analysis of the deposited data

How the results depend on the processing

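For 8 values, 49 alternatives were computed, of which 29 stayed within the 95% interval of the reported value and 20 moved outside it. Keeping the chromosome starts, leaving out low Srf identifier numbers and all alternatives for the middle of domains and for H3ac identifier numbers were chosen after seeing the data. When H3ac had to cover 50% or more of a member, the values were 14.5% of Srf peaks as members, a median midpoint distance of 96 bp and a median width of 160 bp, as a stricter rule that favours narrow peaks would. H3ac peaks of 100 bp or wider gave 24.2% members and a median cover of 63.2%. Restricting Srf peaks to the wider ones, from the median width up, gave 30.4% members, a median cover of 36.0%, 23.7% inside H3ac, a median width of 257 bp and 13.6% with another member within 10 kb, and 7.09% of low-numbered H3ac peaks then carried one. Without dense megabases these were 23.7% members, 9.55% with another member within 10 kb and 7.96% of low-numbered H3ac peaks. With chromosome starts kept, 25.8% had another member within 10 kb, against 18.1% as reported. Without the lowest of the 5 groups of Srf numbers the median cover was 66.0%, 39.8% lay inside H3ac, the median width was 162 bp, 14.0% had another member within 10 kb and 8.49% of low-numbered H3ac peaks carried one. For the other moves the cause was not tested. Counting touching ends added 1 member, for 547. The share in the middle of broad domains ranged from 28.2% to 33.3%. The planned values for start sites and CArG boxes were not run because the gene and promoter tables at hand follow another assembly. No paired analysis was possible because each antibody has 1 library and the results come from no test. Unknown depth limits both lists.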

Other observations

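Of the 158 Srf peaks that began before 3100000 and were left out of the members, 59 overlapped an H3ac peak (37.3%, exact 95% interval 29.8% to 45.4%). Chromosome 11 held 92 of the 158 and 50 of the 59, and chromosome 9 held 42 and 6. With them the list of overlapping Srf peaks came to 605 of 2190, or 27.6%.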
